A study of Bos taurus with 134 samples.

Results

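The genome-wide methylation table of this series divides the bovine genome into windows, and the windows described here are the 5697 autosomal windows shorter than 5000 bp, out of 39778 autosomal windows and 41322 in all. They were chosen by length alone (end minus start plus 1, chromosomes 1 to 29), without use of any methylation value. They made up 14.3% of the autosomal windows and 0.487% of the autosomal bases covered by windows. Their median length was 1831 bp (range 37 to 4999 bp), against 41365 bp for the 34081 longer windows (5001 to 1131110 bp). The table is named for 20 CpGs, the methods describe tiles of 100 CpGs, and its shortest window has 37 bp, so window length is used as it stands and is not converted into a CpG density.

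The series is a single-cell methylome and transcriptome study (scM&T-seq) of metaphase II (MII) oocytes, in which DNA and RNA of 1 oocyte are separated and sequenced, and it asks how the maturation environment alters the oocyte. IVM oocytes (n = 26) were aspirated from follicles of up to 8 mm and matured in culture for 22 h. Per the methods, their donors also received GnRH, some days before this aspiration. IVO oocytes (n = 20) matured in the animal: heifers received 180 mg of FSH, and follicles of at least 8 mm were aspirated 24 h after an injection of GnRH. The IVO group held only oocytes with partial or full cumulus expansion, and the IVM and IVO collections from a heifer lay weeks apart. All oocytes came from 4 wild-type Holstein heifers aged 15 to 18 months. No label ties an oocyte to a heifer, so oocytes of a group cannot be counted as independent animals. Each group was therefore taken as 1 sample, SDs over oocytes describe spread only, and the groups were compared without a test. Follicle size, hormone treatment, selection by cumulus expansion, time of collection and culture differ together between the groups and cannot be told apart. The labelled cell type could not be checked in the methylation table, which holds no expression values.

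In mammals, CpG sites are sparse over most of the genome and crowd together in CpG islands, many of which overlap gene promoters and remain free of methylation. In the oocyte, methylation is laid down during postnatal growth by the de novo methyltransferase DNMT3A with its cofactor DNMT3L, largely over transcribed gene bodies, and intergenic stretches and most CpG islands remain low. A small set of CpG islands becomes methylated in the oocyte, and among them are the maternal imprints.

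Each value is the percent methylated given for 1 oocyte in 1 window, from its methylation calls at CpG sites. The number of calls behind a percentage is not given, so its depth is unknown, and a 0 or 100% can rest on few calls. The oocytes had values in 6317 to 31439 autosomal windows and in 102 to 2791 short windows. Of the oocytes, 5 IVM and 6 IVO had fewer than 15000 windows. The 5 IVO libraries numbered 34 to 38 stood apart: the share of short windows they measured was 0.462 ± 0.144 times their share of longer windows (SD, n = 5), against 0.260 ± 0.0743 (SD, n = 15) in IVO libraries 19 to 33. This split was made after the values were seen, and results that rest on these libraries are given with and without them.

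Short windows were methylated at a lower level than longer windows in every oocyte. The mean over all short windows measured in an oocyte was 41.0% ± 8.66 in IVM oocytes (SD, n = 26, lowest 33.0%, median 37.7%, highest 66.0%). In IVO oocytes it was 41.9% ± 7.41 (SD, n = 20, lowest 33.7%, median 40.5%, highest 69.3%). The groups overlapped over nearly their whole range. Longer windows had a mean of 59.8% ± 6.96 in IVM and 62.6% ± 4.99 in IVO oocytes. Within an oocyte, the short minus longer difference was -18.9 ± 2.31 percentage points in IVM and -20.7 ± 4.35 points in IVO, and it was negative in 26 of 26 and 20 of 20 oocytes.

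**Figure D1:**
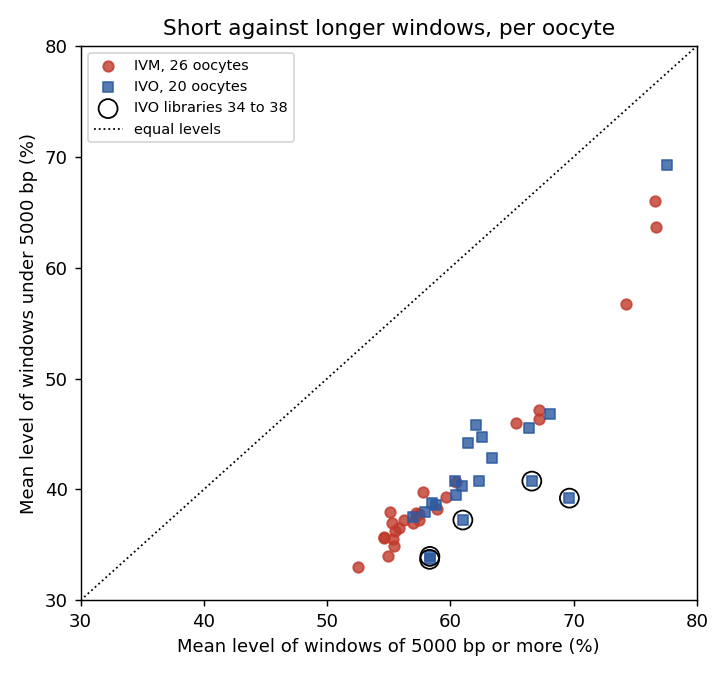
Mean methylation level of short windows (y axis, %) against longer windows (x axis, %), 1 point per oocyte, circles for IVM (n = 26) and squares for IVO (n = 20); rings mark IVO libraries 34 to 38 and the dotted line marks equal levels. All 46 points lie below the line, and the 3 points above 60% on the y axis are oocytes with fewer than 10000 windows.

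The distance between short and longer windows varied among oocytes. It was smallest in IVO library 30 (-8.28 points), IVM library 41 (-10.6 points) and IVM library 7 (-13.0 points), which had values in 6317, 8186 and 8971 windows. It was largest in IVO libraries 34 to 38, with a mean of -25.8 ± 2.69 points (SD, n = 5, from -30.4 to -23.8). The 2 libraries with the largest distance, IVO 38 (-30.4 points) and IVO 36 (-25.9 points), were also shallow, with values in 10726 and 11374 windows. Below 15000 windows the mean was -16.3 ± 4.33 points in IVM (SD, n = 5) and -21.7 ± 7.47 in IVO oocytes (SD, n = 6), against -19.5 ± 0.904 (SD, n = 21) and -20.2 ± 2.33 (SD, n = 14) in deeper oocytes. Shallow oocytes thus lay at both ends of the range. Without IVO libraries 34 to 38 the IVO mean was -19.0 ± 3.32 points (SD, n = 15), next to the IVM value. Among oocytes with at least 15000 windows, the mean level of short windows was 37.4% ± 2.88 in IVM (SD, n = 21) and 39.9% ± 3.65 in IVO oocytes (SD, n = 14). In the shallower oocytes it was 55.8% ± 9.40 (SD, n = 5) and 46.5% ± 11.8 (SD, n = 6). The part of depth in these levels was not tested.

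The level fell steeply as windows became shorter. In windows below 500 bp (1393 windows) the mean over oocytes was 14.3% ± 15.7 in IVM (lowest 4.37%, median 8.32%, highest 59.7%) and 12.4% ± 11.2 in IVO oocytes (lowest 4.39%, median 10.4%, highest 56.9%). It was 25.6% and 26.3% at 500 to below 1000 bp (724 windows), 39.1% and 42.6% at 1000 to below 2000 bp (874 windows), and 47.4% and 48.9% at 2000 to below 5000 bp (2706 windows). From the shortest to the longest of these classes the SD over oocytes went from 15.7 to 6.61 points in IVM and from 11.2, by way of 13.3 at 500 to below 1000 bp, to 5.72 points in IVO. Above the limit the rise went on more slowly, to 62.1% and 64.9% in windows of 50000 bp or more. The 4 oocytes above 50% in windows below 500 bp were IVM libraries 4, 7 and 41 and IVO library 30, which measured only 6 to 13 of these windows.

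**Figure D2:**
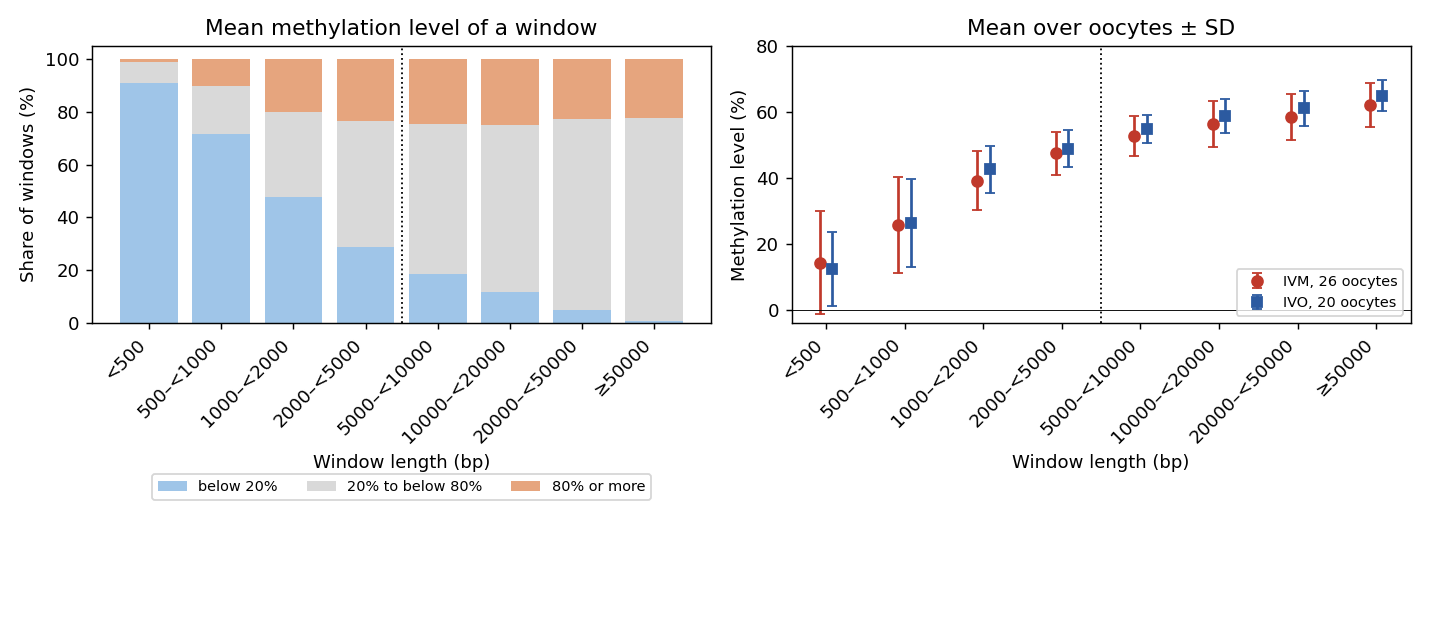
Left, share of windows (%) whose mean of both groups lay below 20%, from 20% to below 80%, or at 80% or more, by window length (bp), for windows measured in at least 1 oocyte of each group; right, mean ± SD over oocytes of the methylation level (%) in IVM (circles) and IVO (squares). The dotted line marks 5000 bp; the share below 20% falls from 90.8% under 500 bp to 0.636% at 50000 bp or more.

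Taken window by window, the level of short windows had a heavy lower end. Among the 5317 short windows measured in at least 1 oocyte of each group, 2687 (50.5%) had a mean of both groups below 20%, 1753 (33.0%) lay from 20% to below 80%, and 877 (16.5%) were at 80% or more. Of these windows, 708 (13.3%) were at 0% in every oocyte that measured them. Among 34070 longer windows the shares were 5.67%, 71.3% and 23.0%, and 9 windows were at 0% throughout. The median was 19.3% in short and 57.8% in longer windows. Short windows were measured in fewer oocytes, so the shares are also given at like numbers of oocytes. At 5 to 9 oocytes 58.0% of short and 28.0% of longer windows were below 20%, and 13.1% and 1.18% were at 0% throughout. At 10 to 19 oocytes 36.3% and 16.2% were below 20%. At 20 or more oocytes the shares below 20% were close, at 2.86% and 2.41%.

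Single values showed the same lower end. Of 54046 values in short windows, 33.7% were 0 and 19.8% were 100%, against 12.0% and 31.5% of 947436 values in longer windows. Below 500 bp, 75.5% of the values were 0 and 2.62% were 100%. From 2000 to below 5000 bp the shares were 22.5% and 23.8%. Per oocyte, the share of short windows at 0% ranged from 16.7% to 39.0%, and its mean was 32.0% ± 5.14 in IVM and 31.9% ± 4.34 in IVO oocytes.

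Few oocytes measured any one short window. The median was 8 of 46 oocytes, against 28 for longer windows, and it rose from 4 below 500 bp to 6, 8 and 10 in the next length classes and to 34 at 50000 bp or more. An IVM oocyte had values in 22.1% ± 10.9 of short windows and an IVO oocyte in 18.7% ± 11.9, against 63.7% ± 19.3 and 56.2% ± 20.2 of longer windows. No oocyte measured 17 of the short windows, 226 were measured in IVM oocytes only and 137 in IVO oocytes only. At least 5 IVM and 5 IVO oocytes measured 1186 short windows (20.8%) and 31844 longer windows (93.4%). Comparisons of group means window by window therefore rest on about 1 in 5 of the short windows, and 986 of the 1186 were 2000 to below 5000 bp long.

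How often a short window was measured went with its level. Windows measured in 1 to 4 oocytes (1228 windows) had a median length of 322 bp, and the 917 of them with values in both groups had a median level of 2.38%, with 78.4% below 20%. Windows measured in 5 to 9 oocytes (2458) had a median of 13.5%, and those measured in 10 to 19 oocytes (1539) a median of 31.8%. In the 455 windows measured in at least 20 oocytes the median was 42.0% with quartiles of 36.1% and 51.3%. Of these 455, 13 (2.86%) were below 20%, 407 (89.5%) lay from 20% to below 80%, and 35 (7.69%) were at 80% or more. Of the short windows measured in fewer than 20 oocytes, 55.0% were below 20%, 27.7% lay in between and 17.3% were at 80% or more. Between the upper classes length hardly differed, with a median of 3398 bp at 10 to 19 oocytes and 3454 bp at 20 or more.

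**Figure D3:**
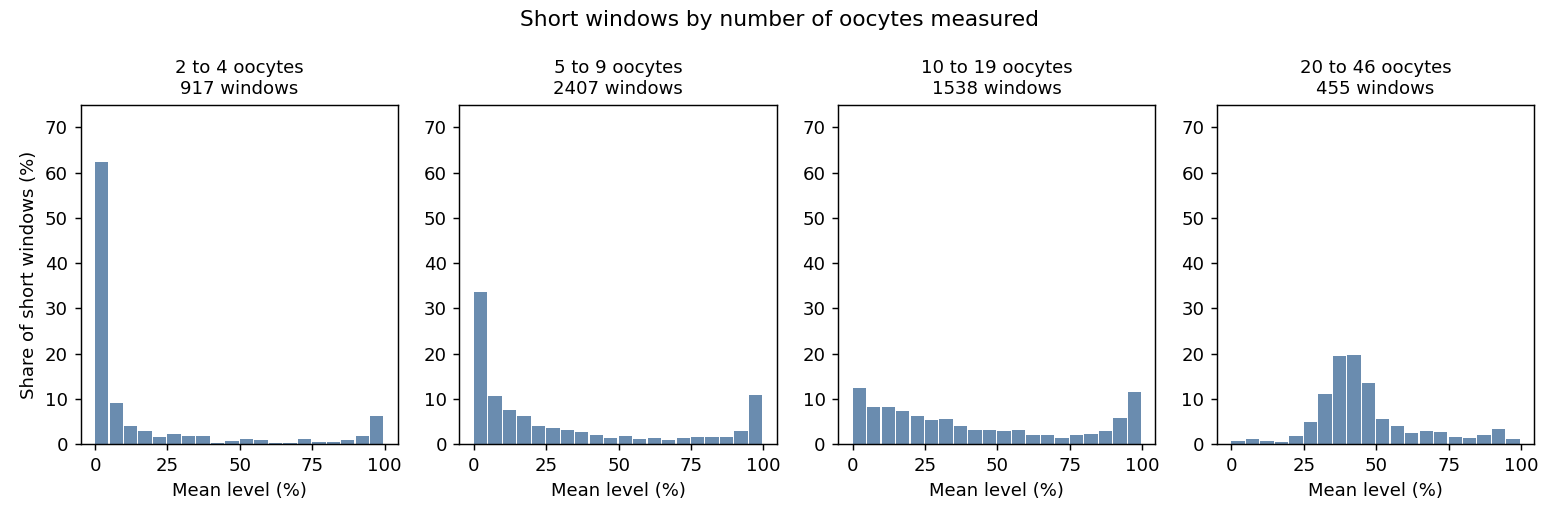
Distribution of the mean level of both groups (x axis, %, bins of 5 points) in short windows with at least 1 oocyte of each group, by the number of oocytes that measured the window; the y axis is the share of windows in each panel (%). The peak at the lowest bin shrinks from left to right, and the windows of 20 to 46 oocytes pile up around 40%.

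Many of the widely measured short windows lay near each other. Joining widely measured short windows (at least 20 oocytes) that lay less than 100000 bp apart gave 226 regions, a rule set after the values were seen, and 153 of these held a single window. The other end of the distribution was 24 regions on 15 chromosomes with at least 5 such windows each, 188 windows in all. In these 188 windows the level was narrow: 159 (84.6%) had a mean of both groups from 30% to below 50%, and the middle 90% ran from 30.9% to 53.7%. The share in that band was 49.4% of the other 267 widely measured short windows, 10.5% of the remaining short windows and 26.9% of the 26451 longer windows measured in at least 20 oocytes.

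The largest region was chr27:28494093-28939504 (coordinates here and below on UMD3.1.1, 1-based), with 19 widely measured short windows of 31.3% to 52.7% and a mean of 43.9%. Next were chr3:82708790-82893896 with 12 windows and a mean of 37.3%, chr5:114113240-114240836 with 12 and 42.5%, chr8:74485735-74794825 with 12 and 42.3%, and chr10:59493593-59532542 with 11 and 43.8%. In the chr10 region all 11 windows that cover the stretch were short and measured in 20 to 36 oocytes. The lowest of the 24 region means was 33.5% and the highest 64.6%, at chr28:11350816-11372126, whose 5 windows lay between 63.4% and 65.6%. Most regions spanned a wider range than this, such as 34.5% to 54.6% in the chr10 region and 29.8% to 58.4% in the 9 windows at chr8:36072155-36148659.

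The level of these regions was followed from oocyte to oocyte. Averaged over the 188 windows, it was 41.9% ± 4.21 in IVM oocytes (lowest 34.4%, median 41.0%, highest 53.6%) and 41.4% ± 6.77 in IVO oocytes (lowest 23.8%, median 42.7%, highest 51.0%). The SD over oocytes was thus lower than over all short windows in IVM (8.66) and close to it in IVO (7.41), and in the other 267 widely measured short windows it was 7.28 and 7.03. The shallow oocytes that reached 66.0% and 69.3% over all short windows were no higher than 53.6% here. Of the 6083 values in the 188 windows, 86.9% were neither 0 nor 100%, against 71.6% in the other widely measured short windows and 56.5% in longer windows. Within a window, the SD over oocytes averaged 20.6 points in IVM and 25.6 in IVO, against 31.6 and 33.4 points in longer windows of 20% to below 80%. In the other widely measured short windows of that range it averaged 23.5 and 26.3 points, so that much of the lower spread was shared by widely measured short windows outside the regions. How many calls lay behind each value is not known, and its part in this spread was not tested.

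Positions of CpG islands were available as a complete list for chromosomes 1 to 3, up to the last island listed, and show how far short windows are CpG-rich stretches. Of 620 short windows there, 410 (66.1%) overlapped a listed island, against 41.0% of 4370 longer windows, and 27.9% of the bases of short windows lay inside islands, against 0.542%. The overlap was 95.3% below 500 bp, 77.1% at 500 to below 1000 bp, 59.3% at 1000 to below 2000 bp and 47.1% at 2000 to below 5000 bp. The name CpG-dense is thus borne out by this list for the windows under 1000 bp, and for fewer than 1 in 2 of the longest class. By overlap that class was close to windows of 5000 to below 10000 bp (45.8%). Of its bases, 21.4% lay inside islands, against 10.9% in windows of 5000 to below 10000 bp. The islands listed are those with methylation data in the study, so these shares are a description.

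Short windows that held an island were low. Their median was 5.73% (382 windows with both groups measured), 68.8% were below 20% and 2.62% were at 80% or more. The 194 short windows without an island had a median of 44.3%, with 27.3% below 20% and 33.5% at 80% or more. Longer windows with an island had a median of 53.8%. Averaged per oocyte, island windows stood at 29.9% ± 9.08 in IVM and 30.5% ± 7.28 in IVO oocytes, and windows without an island at 54.2% ± 13.7 and 56.2% ± 8.76. An oocyte's average weighs the widely measured windows more than a median over windows does.

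The level of short windows differed with the length of the island. Where the longest overlapping island was below 1000 bp the median window level was 8.29% (129 windows), at 1000 to below 2000 bp it was 2.16% (127 windows) and at 2000 to below 10000 bp 3.89% (89 windows). Where it was 10000 bp or more the median was 38.6% (37 windows), and 32 of the 37 (86.5%) lay from 30% to below 50%. Of the 39 short windows over these long islands, 32 (82.1%) were measured in at least 20 oocytes, against 2.96% to 6.32% over the shorter islands. Averaged per oocyte the 4 classes lay closer together. From the shortest to the longest islands the means were 29.0%, 27.2%, 26.8% and 35.8% in IVM oocytes (SDs of 7.62 to 22.8 points). In IVO oocytes they were 35.0%, 18.9%, 28.8% and 37.3% (SDs of 10.2 to 17.3 points). The limit of 10000 bp was set after the values were seen. Widely measured short windows also lay elsewhere: of the 60 on these chromosomes, 32 lay over long islands, 4, 5 and 6 over islands of the 3 shorter classes, and 13 over no listed island, with a median of 41.7%.

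The list held 12 islands of 10000 bp or more among 1997, and 9 of them overlapped short windows. The level given for an island is the average over all windows that overlap it, which can reach beyond the island. The longest, chr3:82707910-82911857, spans 203948 bp with no gene name and is the chr3 region named above. Its 30 windows, 14 of them short, had levels of 30.9% to 50.0% and a mean of 38.1%. The next were chr1:5233379-5292495 (59117 bp, mean 41.0%), chr1:144073842-144127252 (53411 bp, 38.7%) and chr2:100624230-100670744 (46515 bp, 46.4%). Gene-named long islands with short windows were those of SLC9C1, a sodium-proton exchanger of sperm (chr1:57442628-57485287, mean 35.0%), ARHGEF11, a guanine nucleotide exchange factor (chr3:13910497-13941021, 41.4%), and HOOK1, a microtubule-binding adaptor (chr3:86718566-86736988, 47.6%). The exception was chr3:8094062-8115765, where the mean was 9.78% and the level ran from 0% to 37.6%. The 4 windows over the HOOK1 island had a median length of 44132.5 bp, more than the 18423 bp of the island, and only 1 of them was short.

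Promoters (1000 bp upstream to 100 bp downstream of a start site) were listed in full for chromosomes 1 to 5. Of 1151 short windows there, 233 (20.2%) overlapped a promoter, close to the 22.6% of longer windows, but promoters took 4.94% of the bases of short windows and 0.298% of those of longer windows. Short windows with a promoter had a median level of 4.13%, and 77.8% of 225 were below 20%. Longer windows with a promoter had a median of 54.1%. Few of the widely measured windows held a promoter, 7 of 128 (5.47%), against 22.1% of the other short windows.

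Of the short windows on these chromosomes that held an island or promoter with a gene name, 358 were measured in at least 1 oocyte of each group. Their median was 4.77%, 265 (74.0%) were below 20%, 89 were at 0% in every oocyte that measured them, and 15 were at 80% or more. A more stringent set of 59 such windows, with values from at least 5 IVM and 5 IVO oocytes, had 22 below 20%, 32 in between and 5 at 80% or more. The rule for this set and the genes named from it in the next paragraph were added after the values were seen. Of its 62 gene names, 57 were found as symbols or synonyms in the RefSeq gene table of ARS-UCD2.0.

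Windows over developmental genes, picked here after their values were seen, lay over most of the range. The level was 6.67% for ZIC4, a zinc-finger factor of neural development, 7.01% for TBR1, a T-box factor of the cortex, 9.59% for HOXC13 and 14.1% for HOXA6, homeobox factors of the body axis, and 10.2% for SP9, a zinc-finger factor of the forebrain. It was higher for TWIST2 (21.0%), ZIC1 (23.5%) and DMRTA2 (30.0%), transcription factors of the embryo, and higher again for DLX1 and WNT4, described below. In the ZIC4 window the IVM oocytes were at 0% in 5 of 5, and the IVO oocytes averaged 13.3% ± 21.7 (n = 5). Low windows of other genes were those of NRP2, a semaphorin receptor, at 0.463% (IVM 0.926% ± 2.27, n = 6, and IVO 0% in 5 of 5), ETNK1, an ethanolamine kinase, at 0.397%, and CDK6, a kinase of the G1 phase, at 6.08%. A single oocyte at 100% could raise the average of a group. HOXC13 averaged 17.4% ± 40.5 in IVO oocytes (n = 6), with a median of 0.794% and a highest value of 100%. High windows with a gene symbol were those of WNT4, a signalling ligand of the developing gonad (83.2%), GNB3, a G-protein subunit (92.3%), ZC3H12A, an RNase (98.5%), and GPC1, a cell-surface heparan sulphate proteoglycan (98.8%).

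With at least 10 oocytes of each group, 10 gene-named windows remained, and they ranged from 34.1% to 98.8%. The lowest was ARHGEF11 (chr3:13911446-13914082, 35.7% ± 14.1 in 22 IVM and 32.6% ± 26.1 in 13 IVO oocytes). The 2 windows of SLC9C1 stood at 36.3% and 37.7% and HOOK1 at 39.5%, all within the long islands above. DLX1, a homeobox factor of the forebrain (chr2:24504484-24506894), was spread over the whole range: 57.6% ± 48.6 in IVM (n = 20, median 87.5%) and 45.7% ± 39.2 in IVO (n = 12, median 45.8%), with values from 0% to 100% in both groups. VIPR2, a receptor of vasoactive intestinal peptide, and PTPN18, a tyrosine phosphatase, also ran from 0% to 100% in both groups, with means of 46.7% and 51.1%. TMPRSS7, a serine protease, had a mean of 64.2% and PASK, a PAS-domain kinase, of 69.6%. GPC1 (chr3:120403348-120407378) was the most uniform, at 99.2% ± 1.94 in IVM (n = 12) and 98.5% ± 3.31 in IVO (n = 11), with no value below 90.9%.

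A list of 29 imprinted, developmental and germline genes was looked up in the same lists, which cover chromosomes 1 to 5 at most. Genes on other chromosomes could thus not be found. Of the 29, 12 had a listed island or promoter, and 2 of these lay in a short window that both groups measured. Over all listed promoters, 233 short and 1619 longer windows overlapped one, so most genes of any kind lay in longer windows. The 2 windows therefore say nothing particular about these genes. The window of CALCR, the calcitonin receptor next to an imprinted cluster (chr4:10724256-10724850), had 13.6% and 16.7% in 2 IVM oocytes and 0% in 1 IVO oocyte. The window of PAX3, a paired-box factor of neural crest and muscle (chr2:111229588-111230832), was at 0% in 2 IVM and 1 IVO oocytes. The windows over MEST, COPG2, SGCE, GRB10 and DIRAS3, genes of imprinted loci, were longer than 5000 bp.

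The level of a short window went with that of its surroundings but lay below it. Against the nearest longer window on each side in the same oocyte, short windows differed by -10.7 ± 3.53 points in IVM (lower in 25 of 26 oocytes) and by -9.86 ± 6.10 points in IVO (19 of 20). The difference was -32.0 ± 9.05 and -29.2 ± 15.7 points below 500 bp, -18.0 ± 4.39 and -15.4 ± 10.7 points at 500 to below 2000 bp, and -4.80 ± 4.29 and -4.43 ± 3.56 points at 2000 to below 5000 bp. Widely measured short windows were close to their neighbours, with a difference of -1.69 ± 5.35 points in IVM (lower in 19 of 26 oocytes) and -1.22 ± 4.95 in IVO (13 of 20). Among short windows measured in at least 5 oocytes, those between neighbours below 20% had a median of 13.7% (185 windows), and those between neighbours of 80% or more had a median of 89.2% (613 windows). Of these 613, 364 (59.4%) were themselves at 80% or more and 105 (17.1%) were below 20%. Intermediate neighbours of 40% to below 60% went with a median of 20.2%.

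Short windows were concentrated towards the distal end of the chromosomes. Bovine autosomes carry the centromere near the start of the numbering, so the last megabases are the distal end. The last 10 Mb of each chromosome held 39.1% of short and 24.0% of longer windows, while 10 Mb per chromosome is 11.5% of the autosomal length. In the last 1 Mb the shares were 10.2% and 3.51%, against 1.15% of the length. The first 10 Mb held 9.62% and 11.4%. Windows below 500 bp, with 23.5% in the last 10 Mb, and the widely measured windows, with 24.2%, were near the share of longer windows. In the last 1 Mb lay 5.38% of the windows below 500 bp. Of the 455 widely measured windows, 2.86% lay in the last 1 Mb and 6.37% in the first 1 Mb.

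**Figure D4:**
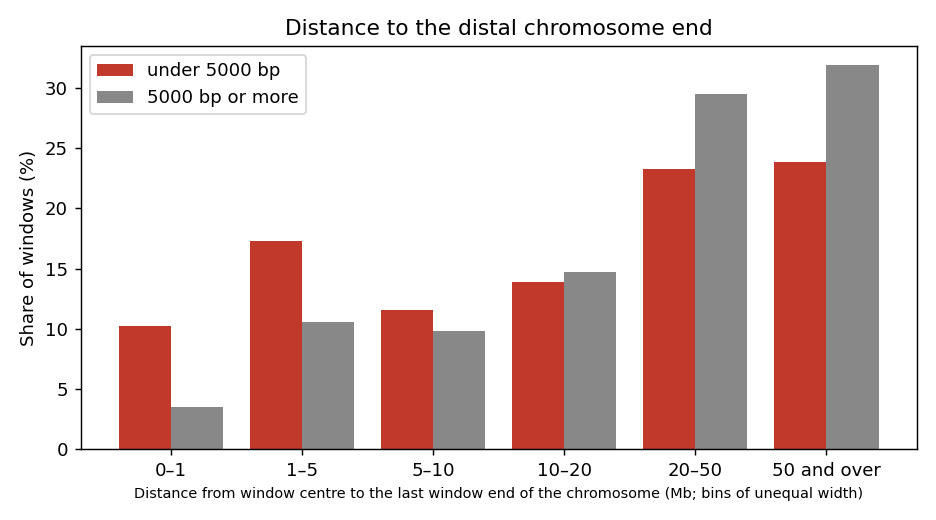
Share of short windows and of longer windows (y axis, %) by the distance of the window centre from the last window end of its chromosome (x axis, Mb, bins of unequal width). Short windows exceed longer windows in the bins up to 10 Mb and fall below them beyond it.

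Levels also differed with this position, without a steady course in short windows. Their median was 23.9% in the last 1 Mb, 24.4% at 1 to 5 Mb from the distal end and 32.5% at 5 to 10 Mb. It was 17.7% at 10 to 20 Mb, 10.4% at 20 to 50 Mb, with 58.8% below 20%, and 14.2% beyond 50 Mb. Longer windows went from a median of 47.2% in the last 1 Mb to 59.5% beyond 50 Mb. The medians of short and longer windows were thus closer together within 10 Mb of the distal end than beyond it.

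Per chromosome, the density ranged from 1.01 short windows per Mb on chromosome 1 to 6.93 on chromosome 25, with 5.81 on chromosome 19, 4.89 on chromosome 29 and 4.61 on chromosome 18. Chromosome 19 held most in number (372) and chromosome 28 fewest (80). The mean level of short windows was 23.6% on chromosome 1 and 39.4% on chromosome 25. Short windows also sat next to each other: 3191 (56.0%) had a short neighbour, in runs of 2 or more, and 6 runs held at least 10. The longest run, chr16:70924375-70961506, had 20 windows whose levels spanned 0% to 99.4%. The next, chr25:41714968-41739941, had 14 windows with a mean of 79.2%, and chr9:104061344-104108246 had 12 with a mean of 16.0%. Unlike the widely measured regions, the windows of these 3 runs were measured in 12 oocytes at most.

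The IVM minus IVO difference, the question of the study, was small in short windows and, taken window by window, smaller than in longer ones. The 1186 short windows with values from at least 5 IVM and 5 IVO oocytes averaged 45.0% in IVM oocytes and 46.0% in IVO oocytes, a difference of -1.02 points. In 31844 longer windows it was -2.54 points, so that short windows differed from longer ones by 1.53 points. All of these are smaller than the SD over all oocytes of either group, the shallow ones included. With oocytes of at least 15000 windows alone the difference was -1.18 points in short and -2.74 in longer windows. Per oocyte, longer windows then averaged 56.9% ± 2.99 in IVM (SD, n = 21) and 60.2% ± 2.02 in IVO (SD, n = 14). Short windows averaged 37.4% ± 2.88 and 39.9% ± 3.65 in the same oocytes. In these deeper oocytes the per-oocyte means of longer windows thus lay further apart than the SD of either group. Those of short windows lay closer together than either SD, but further apart than the difference of -1.18 points taken window by window. Without IVO libraries 34 to 38 the difference was -2.01 points in short and -2.61 in longer windows, and the 1.53 points shrank to 0.60. Short minus longer within an oocyte was then -12.26 points in IVM and -12.22 in IVO, so that by this measure the groups no longer differed. The contrast between short and longer windows thus rested largely on these 5 libraries. With IVM libraries 39 to 46 alone the difference in short windows was -0.21 points, and with libraries 1 to 18 alone -1.03.

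By a difference of at least 10 points between group means, 253 short windows (21.3%) were lower in IVM and 193 (16.3%) higher. Over all 33030 autosomal windows measured this often, 24.9% were lower and 14.1% higher, so the shares in short windows were near the background in both directions. In longer windows they were 25.1% and 14.1%. The middle 90% of differences ran from -24.7 to 23.2 points in short and from -23.6 to 17.9 points in longer windows. Without IVO libraries 34 to 38 702 short windows were tested, of which 161 (22.9%) were lower and 93 (13.2%) higher, against 25.7% and 14.4% of all 29908 autosomal windows tested. The 10-point line is passed more often where few oocytes measure a window: 26.4% and 20.1% of the 735 short windows with fewer than 20 oocytes, and 13.1% and 9.98% of the 451 widely measured ones, passed it. Longer windows measured in at least 20 oocytes passed it in 24.3% and 12.6%.

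**Figure D5:**
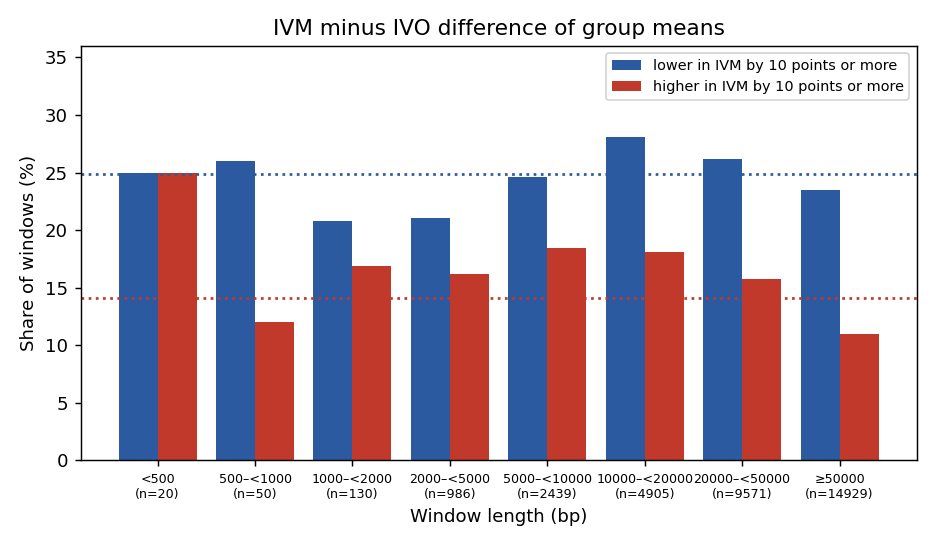
Share of windows (y axis, %) whose IVM mean lay at least 10 percentage points below (blue) or above (red) the IVO mean, by window length (x axis, bp), among windows with values from at least 5 IVM and 5 IVO oocytes; n is the number of windows. Dotted lines mark the shares over all autosomal windows, 24.9% lower and 14.1% higher; only 20 and 50 windows stand behind the classes under 1000 bp.

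Among the 366 short windows with at least 10 oocytes per group, the largest difference was at chr25:42640898-42642095, near the distal end of the chromosome. IVM oocytes averaged 58.5% ± 34.9 (n = 17, lowest 0%, median 50.0%, highest 100%) and IVO oocytes 92.5% ± 21.9 (n = 14, lowest 20.0%, median 100%, highest 100%), a difference of -34.0 points. The next were chr8:71210609-71213264 (18.6% ± 36.6 against 49.4% ± 49.1), chr3:115144264-115149120 (57.2% ± 41.4 against 84.8% ± 27.3), chr6:71374172-71376777 (48.8% ± 47.2 against 73.2% ± 45.9), chr14:558570-561859 (40.1% ± 29.1 against 61.6% ± 32.4) and chr25:35454338-35455552 (30.2% ± 24.6 against 51.1% ± 15.8). The values of both groups overlapped in each of these 6 windows.

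In the other direction, chr8:74674479-74678596, inside the chr8 region above, had 54.1% ± 25.9 in IVM (n = 21, lowest 9.09%, median 50.0%, highest 100%) and 24.3% ± 21.3 in IVO oocytes (n = 14, lowest 0%, median 20.7%, highest 66.7%), a difference of 29.8 points. It was followed by chr3:1026508-1027942 (43.9% ± 34.9 against 15.5% ± 32.1), chr4:35246888-35249316 (50.7% ± 18.1 against 22.7% ± 29.7), chr5:113969925-113974374 (46.1% ± 49.0 against 22.2% ± 40.4), chr27:40236654-40240406 (78.6% ± 42.6 against 56.0% ± 49.6) and chr9:1873-3207 (47.0% ± 27.7 against 24.6% ± 20.1). Here too the values overlapped in each window. The 12 windows were picked from 366 by the size of the difference, which is given as a description.

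The averages of whole regions, named here after their values were seen, are given as a description. The chr8 region had 47.2% ± 13.1 in IVM (25 oocytes) and 38.5% ± 13.2 in IVO (19 oocytes) over its 12 windows. The chr27 region had 45.2% ± 16.6 against 48.9% ± 16.0, and the chr3 region 33.7% ± 13.3 against 35.3% ± 14.5. The region at chr14:498686-585677 had 46.5% ± 9.48 against 57.9% ± 17.6, and that at chr19:17941-68050 54.6% ± 13.9 against 42.6% ± 16.1, both with overlapping oocytes.

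Of the short windows, 6 had a value in all 46 oocytes, and they differed widely in level. In each of the 6 the group means lay closer together than the SD over oocytes of either group. At chr10:102937781-102940493 IVM oocytes averaged 99.3% ± 2.37 and IVO oocytes 98.5% ± 4.54, with 42 oocytes at 100%. At chr19:28158717-28159260 it was 90.1% ± 25.1 and 90.6% ± 23.9, with 39 oocytes at 100% and a lowest value of 9.52%. At chr21:69280145-69283329 it was 69.9% ± 7.55 and 71.1% ± 7.28, and 33 of 46 oocytes had the same value, 66.7%. At chr7:38665150-38666760 it was 57.2% ± 20.2 and 57.5% ± 19.5, with 16 oocytes at 66.7%, and at chr4:119488244-119490021 73.0% ± 27.3 and 81.0% ± 20.4. The sixth, chr22:60104551-60108642, had the largest difference of the 6, with 46.7% ± 17.7 and 36.5% ± 13.5, or 10.3 points. It stood outside the rule for named windows and was added after its values were seen.

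The 3 shortest windows with at least 10 oocytes per group lay above the low level of their length class, but the oocyte minimum itself favours higher windows. Windows below 500 bp were measured in a median of 4 oocytes, and the 20 with at least 5 oocytes of each group averaged 31.2%. A window of 268 bp just outside the minimum, chr1:31242437-31242704 (16 IVM and 9 IVO oocytes), stood at 7.90%. At chr19:51576351-51576530 (180 bp) IVM oocytes averaged 59.0% ± 49.4 and IVO oocytes 54.9% ± 50.8, with a median of 100% in both. At chr8:27189014-27189212 (199 bp) it was 64.3% ± 24.2 and 51.5% ± 31.0, and at chr3:119492572-119492853 (282 bp) 52.1% ± 21.9 and 52.8% ± 13.8. Among windows with at least 10 oocytes of each group, those just inside the limit of 5000 bp (4983, 4990 and 4994 bp) had means of both groups of 36.4%, 46.7% and 40.1%. Those just outside it (5002, 5014 and 5019 bp) had 50.6%, 46.4% and 35.0%.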

How the data were processed

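Per the labels and methods, 46 single-oocyte bisulfite libraries (26 IVM, 20 IVO) were trimmed by 6 bases and for quality with Trim Galore (version 0.4.4), aligned to UMD3.1.1 with Bismark (version 0.18.2) in single-end, non-directional mode, deduplicated and called. The deposited unit is the percent methylated per window and oocyte, quantified by the authors with the bisulfite pipeline of SeqMonk. Calls per value are not given, so precision per value is unknown. Expression scores were not used here.

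Window means were taken over oocytes (Python 3.11.15, pandas 2.3.3, numpy 2.4.6; figures matplotlib 3.10.9). Window-wise group differences needed at least 5 oocytes of each group. The code was tested on simulated data. No test was run. Islands, promoters and their gene names came from the study's supplementary position lists, without their values; lists complete for chromosomes 1 to 3 and 1 to 5 only were used. Windows named were the 6 most negative and 6 most positive differences, the 5 measured most often, the 3 shortest and 3 on each side of the length limit (all with at least 10 oocytes of each group), gene-named windows at the extremes of level, and a gene list. Additions are marked in the text. Members and lists were chosen with earlier results of these data known. Alternatives covered oocyte minimum, length limit, averaging, IVM and IVO library subsets, depth, end distance and call size.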

Additional observations from a re-analysis of the deposited data

How the results depend on the processing

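Taken window by window, the IVM minus IVO difference kept its sign in short and longer windows, and the difference between them stayed positive, under each alternative run. Within an oocyte, short minus longer was nearly the same in both groups without IVO libraries 34 to 38 (-12.26 points in IVM and -12.22 in IVO). Leaving out 1 oocyte at a time gave -1.69 to -0.63 points in short windows and 1.02 to 1.87 points for short against longer. Of 120 values under other settings, 88 stayed within the limit set for them, 32 moved beyond it and none reversed. For means, differences, ratios and shares measured per oocyte the limit was the SD over oocytes. For shares of windows by level or position it was a 95% binomial interval, which treats windows as independent and serves as a yardstick only. For counts it was a fixed ratio to the main count. The share of short windows below 20% (20.0% at 5 oocytes of each group) depends most on the oocyte minimum. It was 50.5% at 1 oocyte (chosen after seeing the data), 35.8% at 3 and 1.37% at 10. A higher minimum leaves out the rarely measured windows, which were more often below 20%. The share was 28.0% and 16.4% with length limits of 2000 and 10000 bp, and 29.7% with medians over oocytes. It was 15.0% and 3.59% with IVM libraries 1 to 18 or 39 to 46 alone, and 10.8% with IVO libraries 19 to 33 alone. The share at 80% or more (18.1%) was 7.38% at 10 oocytes, 11.5% and 22.7% with limits of 2000 and 10000 bp, 22.1% with medians, and 6.22% with IVM libraries 39 to 46. In the windows of at least 5 oocytes of each group, short minus longer within an oocyte was -12.6 points in IVM and -14.3 in IVO; it was -15.2 (IVM) at 3 oocytes, -15.4 (IVM) at a limit of 2000 bp, and -8.63 and -10.1 at 10000 bp. At 2000 bp the short-window means were 38.0% and 38.7%, and the ratio of shares measured was 0.212 in IVM against 0.320. The share of short windows in the first or last 10 Mb (48.7%) was 41.0% and 50.4% with the 2 other limits, and 33.9% with ends of 5 Mb. Counts lower and higher in IVM were 253 and 193, against 43 and 33 at 10 oocytes, 45 and 33 at 2000 bp, 89 and 74 at 20 points, and 161 and 93 with IVO libraries 19 to 33 alone; these settings test fewer windows (702 against 1186 with IVO libraries 19 to 33) or ask for a larger difference, and for the shares under the library subsets the cause was not tested. No paired analysis was possible because no label ties an oocyte to a heifer and the groups share no library number. Unknown calls per value limit each single window.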

Other observations

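The X chromosome, which was outside the autosomal rule, had 129 short windows among 1537 (8.39%), 50 of them below 500 bp. Their mean per oocyte was 34.8% ± 12.7 in IVM (SD, n = 26) and 33.7% ± 12.1 in IVO oocytes (SD, n = 20), on 3 to 75 windows per oocyte. Of 122 X windows measured in both groups, 65.6% had a mean below 20% and 1.64% were at 80% or more, with a median of 11.4%.

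The bands of 30% to 50% over the longest listed islands, and the window on chromosome 21 with the same value in 33 of 46 oocytes, are the values a reader may most want to see again with the calls behind each percentage, which were not analysed here.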
